A study of Mus musculus with 4 samples.

Results

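The complement genes described here are C1qa, C1qb, C1qc, C2, C3, C4b, C3ar1, C5ar1 and Serping1. They were chosen by name, with earlier results of these data known, as the C1q chains, C2, C3, C4b, the anaphylatoxin receptors and the C1 inhibitor. They are 9 of the 33981 genes listed in the RNA sequencing tables of a mouse study on hypertension and stroke. The 24 libraries were made from poly(A) RNA of a coronal brain section that included the prefrontal cortex, 6 from each of 4 groups. NT + Sham and NT + Stroke mice received saline by osmotic pump, and the HT + Sham and HT + Stroke mice were hypertensive through angiotensin II, of which the daily dose was 0.28 mg/kg, in both cases for 28 days. Surgery was on day 7, either sham or a photothrombotic stroke aimed at the prefrontal cortex. All mice were male C57BL/6J of 3 to 5 months and no transgene or deletion was used. GEO holds 1 record per group and the tables number 6 libraries per group, so each library was taken as 1 mouse, and the P values measure the spread between these libraries.

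Complement is a cascade of plasma and tissue proteins. C1q, assembled from the A, B and C chains encoded by C1qa, C1qb and C1qc, recognizes targets such as antibody, debris and synapses, and its partner proteases C1r and C1s cleave C4 and C2. The C4 and C2 fragments form the convertase that cleaves C3, the protein on which all activation routes converge, and the small fragments C3a and C5a act on the receptors encoded by C3ar1 and C5ar1. Serping1 encodes the C1 inhibitor, which blocks C1r, C1s and kallikrein. In the brain C1q comes mainly from microglia, the resident macrophages, whereas C4b and C3 are known to be made by reactive astrocytes, and C3 by myeloid cells too.

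The 3 C1q genes lie next to each other on the minus strand of chromosome 4 (GRCm38), with C1qb at chr4:136880129-136886187, C1qc at chr4:136889804-136893065 and C1qa at chr4:136895917-136898803. C3 (chr17:57203970-57228136), C4b (chr17:34728380-34743882) and C2 (chr17:34862604-34898265) are on the minus strand of chromosome 17. C3ar1 (chr6:122847138-122856161), C5ar1 (chr7:16246743-16259540) and Serping1 (chr2:84765387-84775444) are each the only one of the 9 on their chromosome, also on the minus strand. Upstream sequence is shown for C3, the gene with the largest fold change, and for C1qb, one of the 3 chains that moved together. Both are the 180 bases before the RefSeq start on GRCm38.p6, written 5′ to 3′ along the minus strand, with motif matches in capitals.
C3 (chr17:57228137-57228316): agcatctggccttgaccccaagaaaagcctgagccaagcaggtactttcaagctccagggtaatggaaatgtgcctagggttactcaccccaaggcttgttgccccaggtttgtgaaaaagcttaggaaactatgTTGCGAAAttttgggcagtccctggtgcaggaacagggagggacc
C1qb (chr4:136886201-136886380): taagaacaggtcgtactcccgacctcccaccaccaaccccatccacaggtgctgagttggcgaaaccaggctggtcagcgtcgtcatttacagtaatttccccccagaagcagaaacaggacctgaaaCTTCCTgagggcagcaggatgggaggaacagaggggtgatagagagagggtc
The letters searched on both strands, over the 250 bases before each start, were TTGCGNAA (a C/EBP core), AGGAAG (an ETS and PU.1 core) and TATAAA (the TATA box). In the C3 window the C/EBP core lies 45 to 38 bases before the start. In the C1qb window the ETS and PU.1 core lies 52 to 47 bases before the start, on the opposite strand. Of 32851 RefSeq promoters, 0.67% held the C/EBP core, 29.5% the ETS and PU.1 core and 12.4% the TATA box, and neither printed stretch holds TATAAA. A match is a description of the letters and not of a bound site. RefSeq windows were matched for 5 of the 9 genes.

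Library totals ran from 15922919 to 24865998 counts. Levels are given as CPM, the counts per 1000000 of a library, on library sizes scaled by the trimmed mean of M values (TMM), and as FPKM, which also divides by gene length, where genes are compared with each other. Within their groups 3 libraries stood apart once the values were seen, and no label sets them apart: libraries 1 and 6 of HT + Stroke, and library 6 of HT + Sham. In libraries 1 and 6 of HT + Stroke the 6 reactive astrocyte markers (Gfap, Vim, Serpina3n, Lcn2, Osmr and Cd44) summed to 333 and 323 CPM, against 1209 to 1910 CPM in the other 4 libraries of that group. Library 6 of HT + Sham had a sum of 731 CPM, against 231 to 318 CPM in the other 5. The 5 cerebral cortex markers summed to 362 and 339 CPM in libraries 1 and 6 of HT + Stroke and to 262 CPM in library 6 of HT + Sham. Sums of striatum and olfactory bulb markers also varied within groups, from 528 to 1719 CPM and from 23.9 to 218 CPM over the HT + Stroke libraries. Fitted values of the comparisons that involve HT groups are given with these libraries and, where leaving them out changes a call or a sign, also without them, and the C1q ratios and the correlations were computed with all 24.

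The level of the complement genes per length in NT + Sham spanned more than 3 orders of magnitude. C1qa led at 74.9 ± 8.37 FPKM (SD, n = 6), followed by C1qb at 72.3 ± 11.1 FPKM, and the libraries of these 2 genes overlapped. C1qc stood apart below them at 32.3 ± 4.41 FPKM. C4b at 4.02 ± 0.51 FPKM and Serping1 at 3.98 ± 0.56 FPKM were next and could not be told apart by their spread. The receptor genes were low, with C3ar1 at 0.512 ± 0.078 FPKM and C5ar1 at 0.345 ± 0.132 FPKM, and both overlapped with their neighbour C2 at 0.369 ± 0.131 FPKM. C3 was last at 0.0408 ± 0.0305 FPKM, and its 6 NT + Sham libraries held 24 counts in all. In NT + Stroke the order was C1qa, C1qb, C1qc, C4b, Serping1, C3, C3ar1, C5ar1 and C2, with C3 now at 9.94 ± 4.06 FPKM. Only C1qc and C4b were neighbours without overlap in that group.

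**Figure D1:**
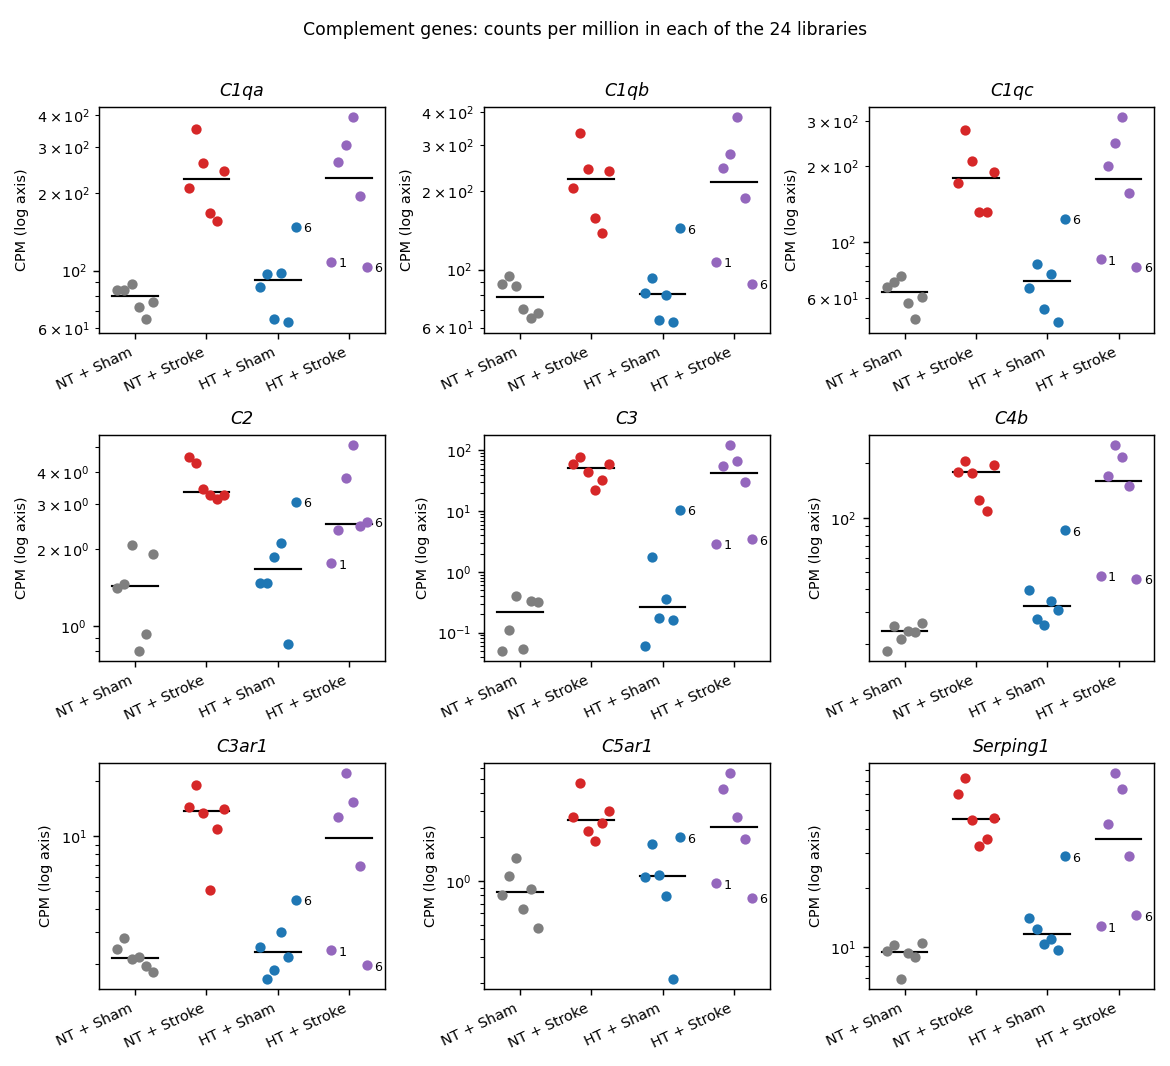
CPM (log axis) of the 9 complement genes in each of the 24 libraries, 6 points per group with a line at the median. The numbers 1 and 6 mark HT + Stroke libraries 1 and 6 and HT + Sham library 6. NT + Stroke lies above NT + Sham without overlap in each panel, and the labelled HT + Stroke points lie below the other stroke libraries in each panel except C2.

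The first comparison was stroke against sham in mice that received saline. All 9 complement genes rose in NT + Stroke over NT + Sham, by 2.57-fold for C2 to 229-fold for C3, and the groups did not overlap for any of them. The median log2 fold change of the 9 was 1.67, against -0.01 over all 16835 genes tested. The 9 were chosen with earlier results of these data known, so this contrast is descriptive. Over those genes, 14.4% rose and 11.5% fell at an adjusted P under 0.05 (edgeR's quasi-likelihood test with Benjamini-Hochberg adjustment), and in 7.78% each stroke library lay above each sham library.

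The 3 chains of C1q rose together. C1qa ranged from 64.9 CPM through a median of 79.6 CPM to 88.9 CPM in NT + Sham and from 156 through 226 to 353 CPM in NT + Stroke. The lowest stroke library was thus above the highest sham library, and the log2 fold change was 1.57 (SE 0.18, adjusted P = 6.24e-05 by edgeR). C1qb rose by 1.48 on the log2 scale (SE 0.20, adjusted P = 0.00024 by edgeR) from 65.3 to 94.6 CPM in sham to 138 to 334 CPM in stroke. C1qc rose by 1.56 (SE 0.18, adjusted P = 5.37e-05 by edgeR) from 49.3 to 73.2 CPM to 131 to 276 CPM.

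The components cleaved after C1q moved by very different amounts. C3 ranged from 0.0504 through 0.214 to 0.404 CPM in NT + Sham and from 22.4 through 51.9 to 77.4 CPM in NT + Stroke, that is 24 counts over 6 sham libraries and 5949 over 6 stroke libraries. Its log2 fold change of 7.84 (SE 0.49, 95% interval 6.75 to 8.93, adjusted P = 1.27e-06 by edgeR) rests on sham libraries of few counts. C4b ranged from 18.3 through 23.5 to 26.1 CPM in sham and from 109 through 179 to 206 CPM in stroke, a rise of 2.85 on the log2 scale (SE 0.16, adjusted P = 1.36e-07 by edgeR). The sham libraries of C4b lay close together and the stroke libraries well above them. C2, the other part of the classical convertase, rose by 1.36 (SE 0.21, adjusted P = 0.00013 by edgeR) at a low level, from 0.804 to 2.08 CPM in sham to 3.14 to 4.59 CPM in stroke. C4b has the near-identical copy C4a, and reads shared by both could be split between them, so the values of C4b and C4a are uncertain to that extent. C4a itself had a log2 fold change of 0.26 (SE 0.19, adjusted P = 0.35 by edgeR).

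Both anaphylatoxin receptor genes rose. C3ar1 ranged from 1.81 through 2.17 to 2.77 CPM in NT + Sham and from 5.09 through 13.7 to 19.0 CPM in NT + Stroke. This was a rise of 2.53 on the log2 scale (SE 0.25, adjusted P = 5.27e-06 by edgeR). C5ar1 rose by 1.67 (SE 0.27, adjusted P = 0.00015 by edgeR), from 0.48 to 1.44 CPM to 1.88 to 4.72 CPM. The inhibitor rose with the components it restrains: Serping1 ranged from 6.93 through 9.5 to 10.5 CPM in sham and from 32.9 through 45.1 to 72.5 CPM in stroke. Its log2 fold change was 2.38 (SE 0.19, adjusted P = 2.77e-06 by edgeR), larger than that of the 3 C1q chains, although the difference between genes was not tested.

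**Figure D2:**
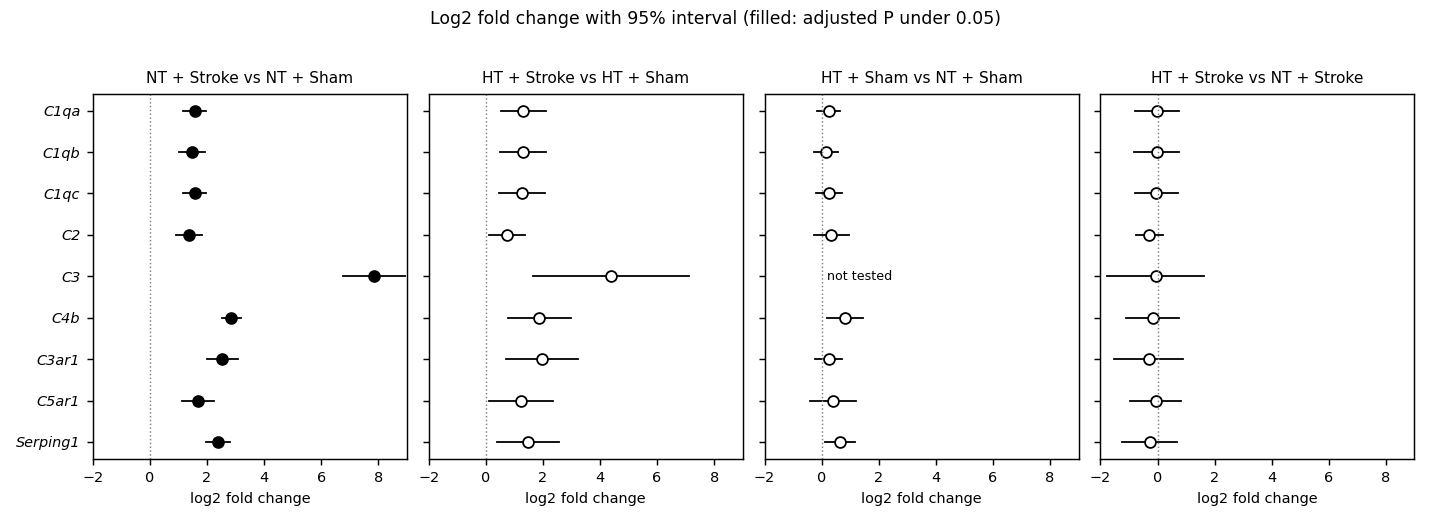
Log2 fold change of each complement gene in 4 comparisons, with its 95% interval from edgeR, filled where the adjusted P was under 0.05. The 9 genes are filled in NT + Stroke vs NT + Sham only, the intervals in HT + Stroke vs HT + Sham lie above 0 without being filled, and C3 was not tested in HT + Sham vs NT + Sham because of its low counts.

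In bulk tissue, fewer cells of a type and less RNA per cell cannot be told apart, so the markers of the likely source cells are given beside these values. The 6 pan-myeloid markers (Aif1, Csf1r, Cd68, Tyrobp, Ctss and Laptm5) all rose, and their sum went from 224 to 253 CPM in NT + Sham to 403 to 792 CPM in NT + Stroke. Of the 7 homeostatic microglia markers 5 rose, and their sum went from 135 to 156 CPM to 186 to 203 CPM. P2ry12, a purinergic receptor of resting microglia, had a log2 fold change of 0.05 (SE 0.08, adjusted P = 0.73 by edgeR). The ratio of C1qa to P2ry12 CPM was 2.31 to 3.96 in sham and 5.94 to 15.4 in stroke. That of C1qa to the pan-myeloid marker Csf1r was 0.819 to 1.26 in sham and 1.51 to 2.34 in stroke, also without overlap. In contrast, the ratio of C1qa to Tyrobp, an adaptor of myeloid receptors, was 3.91 to 4.73 and 3.66 to 4.51 and overlapped. Of the 6 monocyte and neutrophil markers 4 passed the filter and all 4 rose, with a median log2 fold change of 2.87. Their list summed to 1.56 to 2.57 CPM in sham and 4.81 to 51.1 CPM in stroke, with a stroke median of 6.17 CPM. Of the 6 border macrophage markers 4 rose, and their sum went from 9.11 to 16.4 CPM to 15.2 to 29.9 CPM, with overlap. All 6 reactive astrocyte markers rose, from summed levels of 212 to 252 CPM to 851 to 1493 CPM, and all 5 fibroblast and meningeal markers rose, from 53.8 to 70.6 CPM to 200 to 664 CPM. All 5 cortical markers fell, from 380 to 429 CPM to 250 to 296 CPM, and 3 of 4 olfactory bulb markers rose, from 43.4 to 99.3 CPM to 75.9 to 288 CPM. The part of cell numbers and of the region sectioned in the complement values was not tested by cell type. With the olfactory bulb and striatum sums as covariates, an alternative chosen after the data were seen, 8 of the 9 genes were called and C2 was not, beside 3.84% of all genes higher. Markers of hepatocytes and plasma, the main source of circulating complement, summed to 1.12 to 2.31 CPM over both groups, with Alb and Serpina1a at 0.219 CPM or less.

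The other complement genes were examined as a list of 47, of which 45 were in the tables and 28 passed the filter on low counts in this comparison. Of these, 12 rose and 2 fell, beside the background of 14.4% and 11.5%, and their median log2 fold change was 0.27. Of the C1q partner proteases, C1s1 rose by 2.28 on the log2 scale (SE 0.24, adjusted P = 2.9e-06 by edgeR) and C1ra by 1.98 (SE 0.23, adjusted P = 1.02e-05 by edgeR). Of the lectin pathway only the collectin Colec12 rose, by 1.04, while the proteases Masp1 (0.20) and Masp2 (0.20) did not pass the test. Mbl2 had 0 counts over the NT + Sham and 5 over the NT + Stroke libraries, and the alternative pathway factor Cfb had 8 and 4. Properdin, encoded by Cfp, was the alternative pathway gene that passed the filter and rose by 0.46.

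Among the genes for the membrane attack complex, C7 and C8g passed the filter and neither was called. Hc, which encodes C5, had 10 counts over the NT + Sham libraries and 49 over NT + Stroke, and C9 had 2 and 1. Hc fell below the filter. When each gene with any count was fitted, its log2 fold change was 2.05 (SE 0.66, adjusted P = 0.028 by edgeR), which rests on few counts. The soluble regulators vitronectin (Vtn, 0.57) and clusterin (Clu, 0.39) rose. Of the 10 membrane regulators tested, Cd59a, which blocks pore assembly, rose by 0.37, and Csmd1 and Susd4, known as complement inhibitors of neural tissue, fell by 0.48 and 0.17. All 5 of the other receptors tested rose: Itgax by 5.61, its partner chain Itgb2 by 1.99, C5ar2 by 1.09, Cd93 by 1.01 and Itgam by 0.70. Itgax encodes a chain of complement receptor 4 and went from 0.0504 to 0.42 CPM in sham to 3.20 to 14.8 CPM in stroke.

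**Figure D3:**
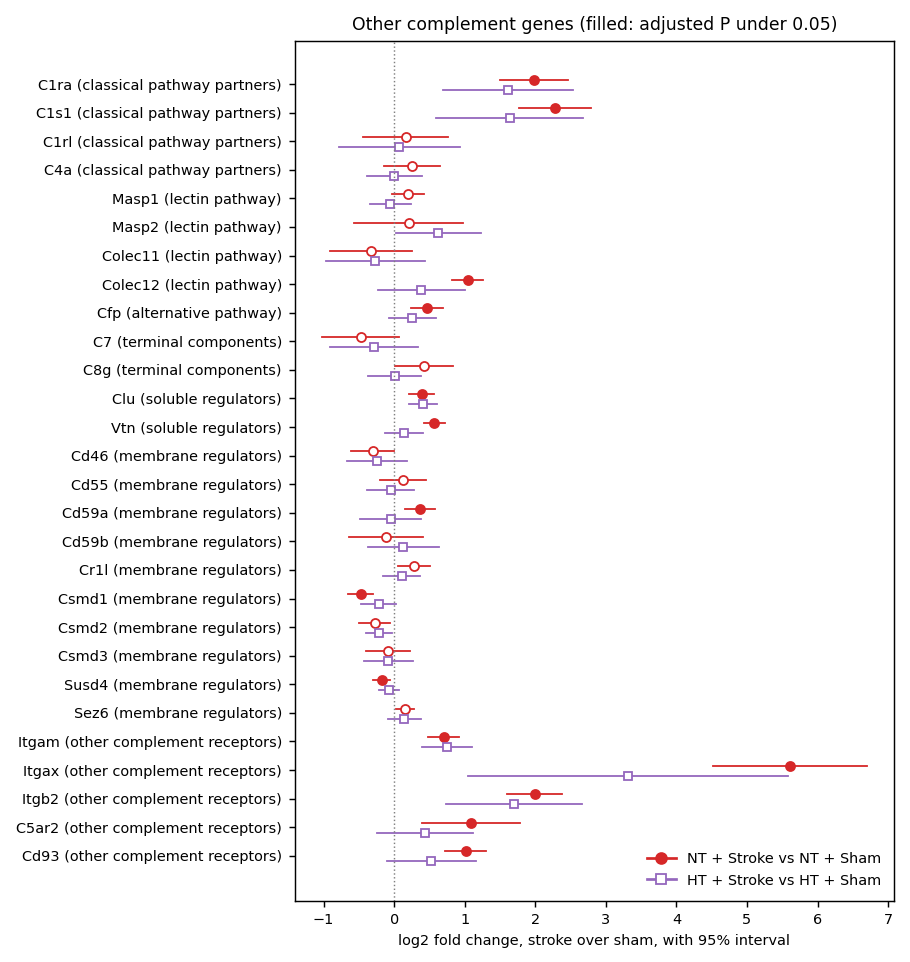
Log2 fold change of stroke over sham, with 95% intervals from edgeR, for the other complement genes tested, grouped by role. Circles are NT mice and squares HT mice, filled where the adjusted P was under 0.05. In NT mice 14 are filled, among which Itgax (5.61), C1s1 (2.28), Itgb2 (1.99) and C1ra (1.98) lie farthest to the right, and in HT mice 0 are filled.

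The second comparison was stroke against sham in mice that received angiotensin II. The fitted values of all 9 complement genes were higher in HT + Stroke than in HT + Sham, from 0.74 on the log2 scale for C2 to 4.38 for C3, but none passed the adjusted threshold in edgeR. At an unadjusted P under 0.05, 9 of 9 did. Of 16741 genes tested, 0.544% rose at the adjusted threshold and 10.5% rose at the unadjusted one. The adjusted P values of the 9 genes ran from 0.10 for C4b to 0.24 for C5ar1, and the median log2 fold change was 1.31 against 0.00069 over all genes. DESeq2 called 6 of the 9 (C1qa, C1qb, C1qc, C3, C4b and C3ar1) beside 3.71% of its genes higher. One edgeR fit of all 4 groups called 7, which adds Serping1, beside 4.76% higher. With the olfactory bulb and striatum sums as covariates, 0 of the 9 were called, with adjusted P values of 0.54 to 0.67, beside 0% of 16741 genes, and the log2 fold changes were 7.67 for C3 and 2.76 for C4b.

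Markers moved with these values too. At an unadjusted P under 0.05, all 5 striatum markers were higher in HT + Stroke than in HT + Sham, with a median log2 fold change of 1.40 and sums of 528 to 1719 CPM against 154 to 673 CPM. Of the 5 fibroblast and meningeal markers 4 were higher (81.2 to 747 CPM in stroke against 55.2 to 204 CPM in sham), as were all 6 reactive astrocyte markers and all 6 pan-myeloid markers, while 2 of the 5 cortical markers were lower (242 to 362 against 262 to 394 CPM). None of these markers passed the adjusted threshold in edgeR. The part of these in the complement values was not tested by cell type.

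The HT + Stroke libraries were spread far more widely than the NT + Stroke ones. C3 ranged from 0.0592 through 0.268 to 10.5 CPM in HT + Sham and from 2.90 through 43.0 to 123 CPM in HT + Stroke. The low end of stroke was libraries 1 and 6, at 2.90 and 3.44 CPM, and the high end of sham was library 6, whose 210 counts made up most of the 251 of that group. Without these 3 the ranges were 0.0592 to 1.73 CPM and 30.2 to 123 CPM. The log2 fold change of C3 was 4.38 (SE 1.24, adjusted P = 0.12 by edgeR) with all libraries and 7.15 (SE 0.71, adjusted P = 0.00063 by edgeR) without the 3. Because the 3 were chosen after their values were seen, the SE and P values without them, here and below, are descriptive only. They do not test the difference.

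C4b ranged from 25.3 through 32.5 to 85.2 CPM in HT + Sham and from 45.8 through 161 to 253 CPM in HT + Stroke. Here too libraries 1 and 6 of stroke, at 47.7 and 45.8 CPM, lay below library 6 of sham, so the groups overlapped, while the others did not, at 25.3 to 39.7 CPM and 151 to 253 CPM. The log2 fold change of C4b was 1.88 (SE 0.50, adjusted P = 0.10 by edgeR) with all libraries and 2.66 (SE 0.16, adjusted P = 1.42e-06 by edgeR) without the 3. Serping1 ranged from 9.68 through 11.7 to 29.0 CPM in HT + Sham and from 12.8 through 35.7 to 76.7 CPM in HT + Stroke, with the lowest stroke values of 12.8 and 14.5 CPM again in libraries 1 and 6. Its log2 fold change was 1.47 (SE 0.49, adjusted P = 0.16 by edgeR) with all libraries and 2.20 (SE 0.25, adjusted P = 0.00029 by edgeR) without the 3.

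C1qa ranged from 62.9 through 91.6 to 148 CPM in HT + Sham and from 103 through 229 to 394 CPM in HT + Stroke. Libraries 1 and 6 of stroke, at 108 and 103 CPM, were above the other 5 sham libraries (62.9 to 97.4 CPM) and below sham library 6 at 148 CPM. The log2 fold change was 1.31 for C1qa (SE 0.36, adjusted P = 0.11 by edgeR), 1.30 for C1qb and 1.28 for C1qc. Without the 3 libraries these values were 1.83, 1.84 and 1.82, with adjusted P values of 0.00011, 7.25e-05 and 0.00015 by edgeR. C3ar1 had 1.66 through 2.34 to 4.51 CPM in HT + Sham and 1.98 through 9.85 to 22.1 CPM in HT + Stroke, with stroke libraries 1 and 6 at 2.39 and 1.98 CPM, inside the sham range, and a log2 fold change of 1.98 (SE 0.57, adjusted P = 0.12 by edgeR), or 2.67 (SE 0.29, adjusted P = 0.00011 by edgeR) without the 3. C5ar1 and C2 had log2 fold changes of 1.23 (SE 0.52) and 0.74 (SE 0.30), and their groups overlapped as well. Without the 3 libraries they were 1.88 (SE 0.42, adjusted P = 0.012 by edgeR) and 1.14 (SE 0.29, adjusted P = 0.026 by edgeR).

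In 8 of the 9 genes, all but C2, libraries 1 and 6 of HT + Stroke lay below the other 10 stroke libraries. They were above the other 11 sham libraries for 3 of the 9 genes and inside their range for 2. Library 6 of HT + Sham was the highest of the 12 sham libraries for all 9. The pan-myeloid sum was 277 and 280 CPM in HT + Stroke libraries 1 and 6 against 469 to 861 CPM in the other 4, and 373 CPM in HT + Sham library 6 against 224 to 254 CPM in the other 5. Lesion size and the labelling of these libraries were not examined here. Leaving out all 3, which was decided after their values were seen and removes the libraries that most reduce the difference, 9 of 9 genes were called beside 6.81% of 16956 genes higher. Leaving out HT + Stroke libraries 1 and 6 alone, 8 were called, all but C2, beside 5.80% higher. Leaving out HT + Stroke library 1 alone, 3 genes were called (C1qa, C3ar1 and C4b, beside 2.67% of all genes), and leaving out library 6 alone, 2 were (C1qb and C3ar1, beside 1.57%).

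**Figure D4:**
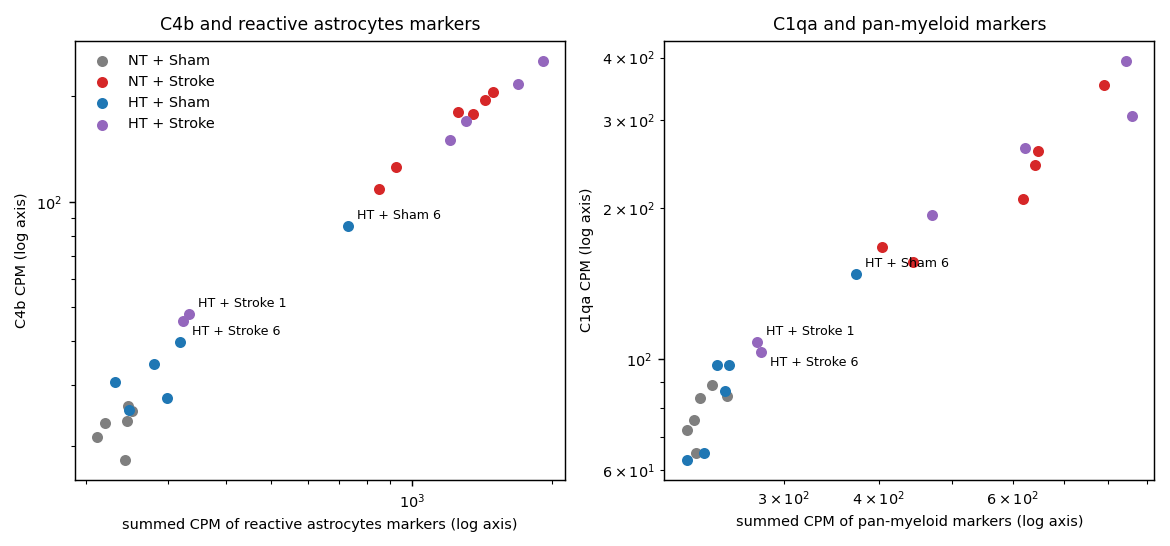
Left, C4b CPM against the summed CPM of 6 reactive astrocyte markers. Right, C1qa CPM against the summed CPM of 6 pan-myeloid markers. Both axes are logarithmic, each point is 1 of 24 libraries coloured by group, and the named points are the 3 libraries set apart in the text, with C4b at 47.7, 45.8 and 85.2 CPM in HT + Stroke 1, HT + Stroke 6 and HT + Sham 6.

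Of the other complement genes, 29 were tested in HT + Stroke vs HT + Sham and 0 were called by edgeR at the adjusted threshold. At an unadjusted P under 0.05, 7 were higher and 1, Csmd2, was lower, beside 1754 higher and 1088 lower of 16741 genes. The smallest adjusted P was that of Itgam at 0.051, with a log2 fold change of 0.75 (SE 0.17) and no overlap between the groups. DESeq2 and the fit of all 4 groups each called 6, the same genes in both: C1ra, C1s1, Clu, Itgam, Itgax and Itgb2. Over all genes, 3.71% and 4.76% were called higher in these 2 fits. The C1q partner proteases had log2 fold changes of 1.61 for C1ra and 1.64 for C1s1. Cfd, which encodes factor D, had 112 counts in 1 HT + Sham library and 0 in the other 23.

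The third comparison was angiotensin II against saline in sham mice. None of the 8 complement genes that could be tested passed the adjusted threshold in edgeR, nor did any of 16581 genes, so the share called higher was 0%. At an unadjusted P under 0.05, C4b and Serping1 were higher, beside 4.96% of all genes. C4b had 18.3 through 23.5 to 26.1 CPM in NT + Sham and 25.3 through 32.5 to 85.2 CPM in HT + Sham, so that 5 of the 6 HT + Sham libraries were above the highest NT + Sham library. The log2 fold change of C4b was 0.82 (SE 0.29, adjusted P = 0.51 by edgeR), and without HT + Sham library 6 it was 0.45 (SE 0.11, adjusted P = 0.82 by edgeR). Serping1 had a log2 fold change of 0.64 (SE 0.25, adjusted P = 0.53 by edgeR), and 0.31 (SE 0.12, adjusted P = 0.95 by edgeR) without that library. With the olfactory bulb and striatum sums as covariates the values were 0.14 for C4b (SE 0.25) and -0.00079 for Serping1 (SE 0.22), and 0% of 16581 genes were called. At an unadjusted P under 0.05 all 4 olfactory bulb markers were higher in HT + Sham, with a median log2 fold change of 1.31 and sums of 66.4 to 353 CPM against 43.4 to 99.3 CPM in NT + Sham. Of the 5 fibroblast and meningeal markers 3 were higher (55.2 to 204 against 53.8 to 70.6 CPM), 2 of the 6 reactive astrocyte markers were higher, and 3 of the 5 cortical markers were lower (262 to 394 against 380 to 429 CPM). The part of these in the complement values was not tested by cell type.

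The C1q chains differed by 0.15 to 0.25 on the log2 scale between HT + Sham and NT + Sham, with 95% intervals that included 0 (for C1qa -0.15 to 0.64). Without HT + Sham library 6 the value of C1qa was 0.06, that of C1qc 0.05 and that of C1qb -0.05. C2 (0.34), C3ar1 (0.25) and C5ar1 (0.39) did not pass the unadjusted test. C3 fell below the filter. When each gene with any count was fitted, its log2 fold change was 3.36 (SE 1.32, adjusted P = 0.62 by edgeR), and 1 library held 210 of its 251 HT + Sham counts. Of 27 other complement genes tested, 0 were called by edgeR or DESeq2. At an unadjusted P under 0.05 in edgeR, Vtn (0.32) and Colec12 (0.31) were higher, beside 4.96% of all 16581 genes.

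The fourth comparison was angiotensin II against saline in mice with stroke. None of the 9 complement genes passed an adjusted or an unadjusted P under 0.05 in edgeR. Over 17008 genes, 0% were called higher, and 7.23% passed an unadjusted P under 0.05 in either direction. The log2 fold changes ran from -0.31 for C3ar1 to -0.03 for C1qa. The medians of C1qa lay near each other, at 226 CPM in NT + Stroke and 229 CPM in HT + Stroke. Those of C3 were 51.9 and 43.0 CPM, and those of C3ar1 13.7 and 9.85 CPM. Serping1 had medians of 45.1 and 35.7 CPM and C2 of 3.35 and 2.51 CPM. The 95% intervals were wide: -0.79 to 0.74 for C1qa, -1.10 to 0.76 for C4b and -1.76 to 1.62 for C3. Differences of any size within these bounds are compatible with these libraries. Without HT + Stroke libraries 1 and 6 the fitted value turned positive for 8 of the 9 genes, among them C3 at 0.47 (SE 0.43), C1qa at 0.32 and C4b at 0.25 (SE 0.19). In that setting 0 of 9 passed the adjusted threshold, beside 0% of 17421 genes. It was chosen after the values were seen and drops the lowest stroke libraries for 8 of the 9 genes. Higher HT + Stroke values follow from that choice and are not evidence of a difference.

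Whether the response to stroke differed between saline and angiotensin II mice was tested as the interaction over all 4 groups. No complement gene passed at an adjusted or an unadjusted P under 0.05 in edgeR, beside 0% of 17608 genes adjusted and 10.4% unadjusted in either direction. All 9 values were negative, from -0.18 (SE 0.42) for C1qb to -3.47 (SE 1.80) for C3, with C4b at -0.98 (SE 0.52, 95% interval -2.08 to 0.11). Without the 3 libraries the values of C3 and C4b were -0.69 (SE 1.24) and -0.20 (SE 0.24), those of Serping1 and C2 were -0.18 and -0.21, and 5 turned positive: C1qa (0.26), C1qb (0.37), C1qc (0.26), C3ar1 (0.14) and C5ar1 (0.21). None of the 9 passed at an unadjusted P under 0.05, beside 688 of 17943 genes without the 3. The 3 were chosen after their values were seen. Leaving out low stroke and high sham libraries of the HT groups shifts the interaction upward by construction.

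The C1q chains were also compared with each other, since the protein holds its 3 chains in equal numbers. The log2 ratio of FPKM in the 24 libraries lay between -0.35 and 0.10 for C1qb to C1qa, between -1.30 and -1.14 for C1qc to C1qa, and between -1.28 and -0.90 for C1qc to C1qb. While the level of C1qa itself varied from 62.9 to 394 CPM, the ratio of C1qc to C1qa stayed within this narrow band. In exact two-sided permutation tests of 3 ratios in 4 comparisons, 0 of 12 had a P under 0.05 before or after Benjamini-Hochberg adjustment. The largest difference was that of C1qc to C1qb in NT + Stroke against NT + Sham, 0.095 on the log2 scale (exact permutation P = 0.13, adjusted 0.59), with a mean of -1.07 in stroke and -1.16 in sham.

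**Figure D5:**
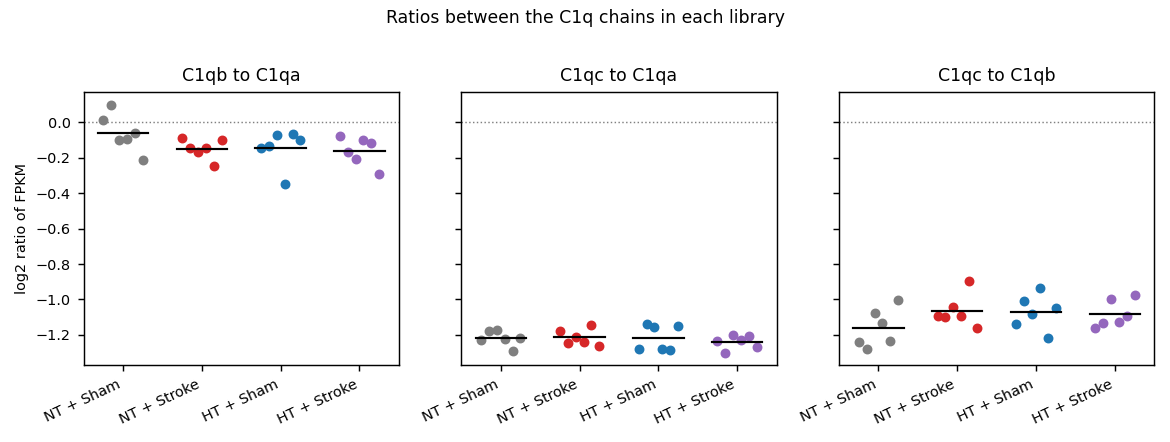
Log2 ratio of FPKM between pairs of C1q chains in each library, by group, with a line at the group mean and a dotted line at 0. The ratios of C1qc to C1qa lie between -1.30 and -1.14 in all 24 libraries, and the groups overlap in each panel.

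The variation among mice of the same group was described by subtracting each group's mean of log2(CPM + 1) and correlating the remainders over the 24 libraries. The libraries share this group structure and the 3 set apart above weigh heavily, so the values are descriptive. C1qa and C1qc had r = 0.995, C1qa and C1qb 0.986, and the lowest value among the 9 genes was 0.53, between C2 and C5ar1. Of 15492 genes whose mean level reached 1 CPM, those most like C1qa outside the 9 were Ctsz (r = 0.985), Trem2 (0.984) and Ctsd (0.98), which encode lysosomal cathepsins and a microglial lipid receptor. Those most like C3 were Vim (0.969), A2m (0.963) and Lyz2 (0.962). Those most like C4b were Serpina3n (0.978), Gfap (0.973) and Vim (0.963), of which Gfap and Vim encode intermediate filaments of astrocytes. Those most like Serping1 were Sparc (0.976), Arpc1b (0.973) and Mmp14 (0.971), of which Sparc encodes a matrix-binding glycoprotein and Mmp14 a membrane protease.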

How the data were processed

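The authors deposited 4 tables of raw counts (whole reads or read pairs per gene, not normalized) and of FPKM, which they made by dividing counts by gene length and library size. The submitters' processing notes name featureCounts 1.5.0-p3 and DESeq2 1.20.0, and the aligner is not given in the sources used here. The authors' 56 columns of normalized counts and group means, their log2 fold changes and their p-values were not used. Tables were joined by Ensembl identifier into 24 libraries.

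Groups were compared in R 4.3.3 with the quasi-likelihood test of edgeR 4.0.16 (two-sided, filterByExpr with minimum count 10 and minimum total count 15, TMM scaling, robust shrinkage), on the libraries of the groups compared, or on all 4 for the interaction. All tested genes entered the Benjamini-Hochberg adjustment of P-values, with a threshold of 0.05. A gene that the filter removed was not tested. The test was checked on counts simulated with the same spread in all libraries of a gene. Libraries that stand apart, as in the HT groups, were not part of that check. Alternatives were DESeq2 1.42.0, limma 3.58.1 on log2(FPKM + 1) and log2(FPKM + 0.1), other scalings and filters, a replicate block and each library left out in turn. Ratios of C1q chains were compared by exact permutation in Python 3.11.15. Named genes are the 9 members, genes of the complement and marker lists, and the 3 genes most like C1qa, C3, C4b and Serping1. Some genes of the lists are not reported here and entered no list count or sum. The members and lists were chosen with earlier results of these data known. With no batch or date in the labels, batches could not be examined, and intervals on counts cover the spread between libraries only.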

Additional observations from a re-analysis of the deposited data

Results flagged for a closer look

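A library was flagged where its gap to the nearest of the other 5 exceeded Dixon's 95% critical share of the group's range, tested at both ends of 36 sets of 6 libraries, and chance flags about 1 in 20 such sets. There were 4 flags and all were library 6 of HT + Sham, the highest of its group: C3 at 10.5 CPM, C4b at 85.2 CPM, Serping1 at 29.0 CPM and C1qb at 144 CPM. The same library had a reactive astrocyte marker sum of 731 CPM, a pan-myeloid sum of 373 CPM, and the highest olfactory bulb sum (353 CPM) and lowest striatum sum (154 CPM) of its group, and the part of these in the 4 values was not tested. HT + Stroke libraries 1 and 6, as a pair, are not picked out by a gap of 1 library.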

How the results depend on the processing

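In NT + Stroke vs NT + Sham the 9 complement genes kept their direction under all alternatives run. The number called was 9 except with genes of at least 10 counts in each library (7, since C3 and C5ar1 were then not tested) and with the olfactory bulb and striatum sums as covariates (8, without C2), and the count of other complement genes was 14, from 12 to 16 under the other fits that adjust P, and 8 with these covariates. Fitting all genes with a count gives 15, with Hc and Csmd2 added and Cd59a lost. The other comparisons were less stable, and the cause was not tested. In HT + Stroke vs HT + Sham 0 complement genes were called by edgeR, against 6 by DESeq2, 7 in the fit of all 4 groups, 8 without HT + Stroke libraries 1 and 6, 9 without these and HT + Sham library 6, 9 at an unadjusted P under 0.05, and 0 to 3 when each library was left out in turn. The count of other complement genes there was 0, against 6 by DESeq2, 6 in the fit of all 4 groups, 2 with all genes that had a count, 7 without HT + Stroke libraries 1 and 6, 8 without all 3, 8 unadjusted, and 0 to 5 when each library was left out, namely 5 without HT + Stroke library 1, 3 without its library 6, 1 without its library 5 and 1 without HT + Sham library 6. Of all genes tested, 532 of 16901 were called without HT + Stroke library 1, 295 of 16916 without its library 6 and 207 of 16871 without its library 5. Without HT + Sham library 6 the calls were 150 of 16858, and with all genes that had a count they were 179 of 32562. At an unadjusted P under 0.05, 2 of 8 complement genes and 2 of 27 others passed in HT + Sham vs NT + Sham, each of them higher. Over all genes 1332 of 16581 passed there in either direction. In HT + Stroke vs NT + Stroke 2 of 29 others passed, 1 higher and 1 lower, beside 1230 of 17008 genes.

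Values near 0 changed sign. With the covariates, log2 values in HT + Sham vs NT + Sham were -0.091 for C1qa, -0.15 for C1qb, -0.11 for C1qc, -0.43 for C2, -0.13 for C3ar1, -0.20 for C5ar1 and -0.00079 for Serping1. In HT + Stroke vs NT + Stroke they were 0.039 for C1qa, 0.037 for C1qb, 0.045 for C1qc and 0.15 for C3, and for the interaction 0.060, 0.15, 0.083 and 0.019 for C1qa, C1qb, C1qc and C2. Without HT + Stroke libraries 1 and 6, HT + Stroke vs NT + Stroke gave 0.32 for C1qa, 0.31 for C1qb, 0.30 for C1qc, 0.47 for C3, 0.25 for C4b, 0.16 for C3ar1, 0.35 for C5ar1 and 0.12 for Serping1. Without all 3, the interaction was 0.26 for C1qa, 0.37 for C1qb, 0.26 for C1qc, 0.14 for C3ar1 and 0.21 for C5ar1. Both of these omissions were chosen after the values were seen and shift the values upward by construction. With each library left out in turn, HT + Stroke vs NT + Stroke ran from -0.25 to 0.14 for C1qa, -0.28 to 0.13 for C1qb, -0.27 to 0.12 for C1qc, -0.63 to 0.18 for C3, -0.39 to 0.021 for C4b and -0.40 to 0.14 for C5ar1. For C1qb, HT + Sham vs NT + Sham ran from -0.052 to 0.23 and the interaction from -0.42 to 0.023. The adjusted P of these values stayed above 0.05 throughout. For C1q ratios 0 of 3 passed in each comparison under the alternatives run.

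The library numbers in the column names showed no clear pairing of mice. The correlation of same-numbered libraries ran from -0.52 to 0.41, with at most 3 of 6 pairs over 0.1. At most 1 of 6 libraries resembled its own number best. A check on 6 pairs cannot exclude that the numbers mark a shared batch. With the replicate block, 9 complement genes were called in NT + Stroke vs NT + Sham and 0 in each of the other comparisons and the interaction, and 16 other complement genes in the first. Low counts limit C3 in sham libraries, C2 and C5ar1.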
